A study of Mus musculus with 4 samples.

Results

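Igha, Igkv8-30, Jchain and Pigr are 4 genes of the secretory IgA system, and their probe sets were described on 4 arrays of laser-captured mouse intestinal epithelium. They are represented by 7 of the 34945 probe sets that the platform annotation assigns to 1 gene symbol, and by 4 of the 18193 genes so named: 3 probe sets for Igha, 2 for Pigr and 1 each for Jchain and Igkv8-30. The genes were chosen by values of these same arrays, in which transcripts of IgA-producing cells stood among the lowest on the germ-free arrays, so the levels below are a description and carry no test. A further 3 probe sets list Igkv8-30 beside other kappa light chain genes and are described apart, with no gene named from them.

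The 4 groups were colon germ-free, colon wild type, ileum germ-free and ileum wild type, all from C57/Bl6 mice. Germ-free mice live without microbes, and the wild type mice were the control animals of the study. Epithelial cells of the proximal colon or the ileum were cut by laser from tissue sections, cells of 4 mice were pooled for each group, and each pool's RNA went through 2 rounds of amplification before hybridisation to 1 array. The sources used here give no age or sex of the mice, and hematoxylin staining is mentioned in the labels of the germ-free samples alone. With 1 pooled array per group there is no replicate, no p-value and no measure of the spread between mice, which limits the precision of every value below.

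IgA is the main antibody of the gut lumen. Plasma cells in the lamina propria below the epithelium make the IgA heavy chain and a light chain, and the small J chain joins IgA monomers into dimers. The polymeric Ig receptor, made by the epithelial cells themselves, binds the J chain-containing dimer at the basolateral side, carries it across the cell and is cleaved at the apical side, so that part of it leaves with the antibody as secretory component. Colonising microbes are known to drive the build-up of intestinal IgA plasma cells, and Pigr is known to respond to microbial and interferon signals. Transcripts of Igha, Igkv8-30 and Jchain are thus products of B lineage cells, while Pigr is a product of the captured epithelium.

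Of the 4 genes, 2 had a promoter entry in the RefSeq table used (build GRCm38.p6), and both are shown because one gene is expressed by plasma cells and the other by epithelium. For Pigr the bases from 250 before to 30 after the transcription start are given (chr1:130826434-130826713, plus strand), and for Jchain the 250 bases before the start (chr5:88527898-88528147, minus strand, given 5′ to 3′ on that strand). Capitals mark matches, on either strand, to the E-box CACGTG that USF factors bind, to AANNGAAA, the core of interferon regulatory factor sites, or to the octamer ATGCAAAT of B cell promoters.
Pigr: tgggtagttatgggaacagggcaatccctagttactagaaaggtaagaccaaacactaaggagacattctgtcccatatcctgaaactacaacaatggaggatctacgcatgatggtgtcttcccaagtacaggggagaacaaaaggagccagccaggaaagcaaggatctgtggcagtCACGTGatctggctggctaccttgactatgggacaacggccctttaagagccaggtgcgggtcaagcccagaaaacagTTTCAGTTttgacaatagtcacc
Jchain: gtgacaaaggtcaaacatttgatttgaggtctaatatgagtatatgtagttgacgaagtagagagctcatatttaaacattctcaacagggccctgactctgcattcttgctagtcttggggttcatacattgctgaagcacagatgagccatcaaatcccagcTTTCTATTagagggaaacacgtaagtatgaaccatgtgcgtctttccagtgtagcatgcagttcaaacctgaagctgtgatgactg

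The Pigr window held 1 E-box, at positions -71 to -66 from the start, and 1 interferon regulatory factor core, at 8 to 15 after it. The Jchain window held no E-box of those letters and 1 interferon regulatory factor core, at -86 to -79, and neither window held the octamer. Among 32851 mouse promoter windows of the 280 bases shown for Pigr, 6.79% held the E-box, 23.1% the interferon regulatory factor core and 1.69% the octamer. Within the 250 bases shown for Jchain the shares were 6.02% for the E-box, 21.3% for the interferon regulatory factor core and 1.6% for the octamer. The motifs do not overlap one another. These matches describe letters in the windows and no binding was measured.

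Intensities below were quantile-normalized between arrays, and lower values were set to a floor, the pooled median intensity of 62.4, for changes. All 7 probe sets lay above the floor on all 4 arrays. A change is the log2 intensity on one array minus that on the other. The SD of the change between the brightest 2 probe sets of the same gene, over 2647 genes, was 0.32 log2 for germ-free against wild type in colon and 0.23 in ileum. This SD measures probe set error within the arrays and says nothing of mice.

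Array-wide values differed between the states as well. On the deposited values the 3 probe sets for 18S ribosomal RNA had a median log2 change, germ-free minus wild type, of -1.23 in colon and -0.93 in ileum. For the Gapdh control, the log2 ratio of the 5′ to the 3′ probe set had a germ-free minus wild type difference of -0.48 in colon and -1.10 in ileum. For the Actb control this difference was -0.12 in colon and -1.20 in ileum. RNA quality and germ-free state cannot be told apart in this design, and neither can fewer cells of a type and less RNA per cell. All 12 epithelial markers, such as Epcam and Krt8, lay above 259, the 75th percentile over the arrays, on every array, with summed intensities of 99858.5 on the germ-free and 91564 on the wild type colon array, and of 100073 on the germ-free and 106002 on the wild type ileum array. Their median change was 0.15 in colon and -0.11 in ileum, and both signs turned under other scalings between arrays. The largest changes among them were those of Krt18 (-0.48 in colon), Cdx2 (0.38 in colon) and Krt19 (0.25 in colon, a sign that turned under other scalings).

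The 3 immunoglobulin transcripts were much lower on the germ-free array than on the wild type array in both gut regions, while Pigr was 1.17-fold lower in colon and, depending on the probe set, 1.51-fold or 3.03-fold lower in ileum. The IgA heavy chain gene Igha, by the brightest of its probe sets, read 501 on the germ-free and 4609 on the wild type colon array, and 1712 on the germ-free and 7204 on the wild type ileum array. Its log2 change was -3.20 in colon (9.19-fold lower) and -2.07 in ileum (4.21-fold lower). The next Igha probe set read 351 on the germ-free and 3625 on the wild type colon array, and 1410.3 on the germ-free and 6509.6 on the wild type ileum array. The dimmest read 125 on the germ-free and 1253 on the wild type colon array, and 419.6 on the germ-free and 3121 on the wild type ileum array. All 3 probe sets placed both germ-free arrays below both wild type arrays. Their changes spanned -3.37 to -3.20 in colon, a narrow range beside the SD of 0.32, and -2.89 to -2.07 in ileum, where the dimmest probe set showed the largest change. None of the 3 is a probe set of unique design, since their names end in x or a, marks of probe sets that can match several transcripts.

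**Figure D1:**
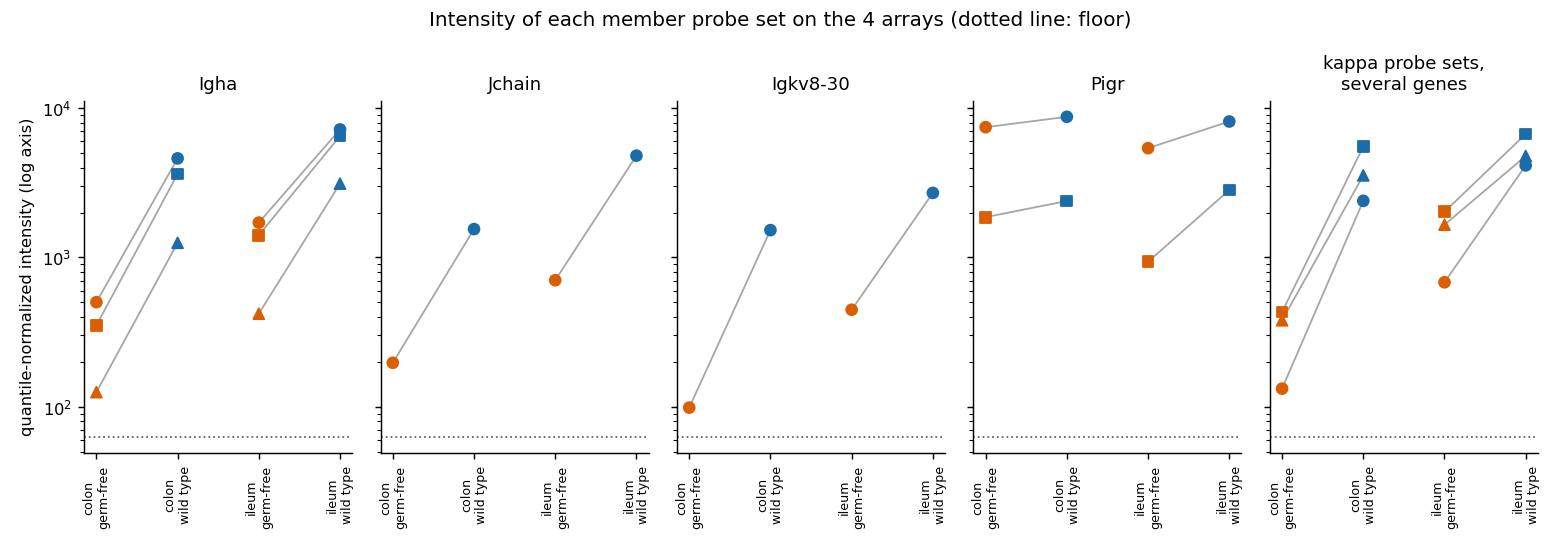
Quantile-normalized intensity (log axis) of each probe set on the germ-free (orange) and wild type (blue) arrays of colon and ileum, with each region's pair joined by a line and each marker shape standing for 1 probe set. Igha, Jchain, Igkv8-30 and the kappa probe sets of several genes are far lower at the germ-free than at the wild type point in both regions, Pigr lies near 5396 to 8752 by its brighter probe set, and its dimmer probe set is low on the germ-free ileum array (935).

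Igkv8-30, a variable segment of the kappa light chain that pairs with heavy chains in antibodies, read 98.6 on the germ-free and 1524 on the wild type colon array, a log2 change of -3.95 (15.5-fold lower). In ileum it read 446 on the germ-free and 2706 on the wild type array, a change of -2.60 (6.06-fold lower). Its germ-free colon value lay close to the floor of 62.4. The 3 kappa probe sets that list several genes were likewise lower on both germ-free arrays. They read 132, 431 and 379 on the germ-free colon array, against 2395, 5532 and 3543 on the wild type colon array. In ileum they read 682, 2022 and 1656 on the germ-free array, against 4139, 6710.2 and 4778 on the wild type array. Their changes spanned -4.18 to -3.22 in colon and -2.60 to -1.53 in ileum. All these kappa probe sets can match many kappa transcripts, so their signal cannot be assigned to 1 variable segment.

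Jchain, which encodes the J chain of dimeric IgA and of pentameric IgM, read 197 on the germ-free and 1549 on the wild type colon array, a log2 change of -2.98 (7.87-fold lower). In ileum it read 704 on the germ-free and 4808 on the wild type array, a change of -2.77 (6.83-fold lower). Its single probe set is of unique design, so among the immunoglobulin members it alone gives a value free of x or a probe sets. The colon and ileum changes of Jchain differed by 0.20, less than the SD of 0.37 between probe sets for that difference.

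Pigr, the epithelial receptor for polymeric immunoglobulin, has a brighter and a dimmer probe set. The brighter read 7457 on the germ-free and 8752 on the wild type colon array, a log2 change of -0.23 (1.17-fold lower), within the SD of 0.32. In ileum it read 5396 on the germ-free and 8144 on the wild type array, a change of -0.59 (1.51-fold lower). The second Pigr probe set read 1862 on the germ-free and 2388 on the wild type colon array, a change of -0.36. In ileum it read 935 on the germ-free and 2831 on the wild type array, a change of -1.60 (3.03-fold lower). The Pigr probe sets thus agreed in sign in both regions and in size in colon. In ileum they differed by more than the SD of 0.23 for 1 probe set's change. The ileum arrays were also those with the larger shift of the 5′ signals of Gapdh and Actb, and its part in the lower value of the second probe set was not tested.

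The members' counts stand beside the whole table as follows. In germ-free colon 3 of the 4 genes were lower by 2-fold or more, as were 3.23% of all 11746 measured genes. In germ-free ileum 3 of 4 were lower by 2-fold or more, as were 0.698% of 11750 measured genes. None of the 4 was at least 2-fold higher, against 1.29% of measured genes in colon and 0.23% in ileum. Since the members were chosen on these values, nothing is read from the counts. The same shares of all measured genes stand beside the counts of the gene lists below. The background moved with the scaling between arrays: in colon 379 genes were lower and 152 higher as reported, against 275 lower and 296 higher on the deposited values, and in ileum 82 were lower and 27 higher as reported, against 52 lower and 56 higher when arrays were scaled on the epithelial markers and 43 lower and 111 higher when scaled on the hybridization spikes. Ordered from the lowest change, Igkv8-30 stood at rank 3, Igha at rank 6 and Jchain at rank 7 of the colon genes, and Jchain at rank 6, Igkv8-30 at rank 10 and Igha at rank 13 of the ileum genes. For Pigr 28.6% of colon genes and 3.04% of ileum genes had a lower change, while the median change of all genes was -0.01 in colon and 0.03 in ileum.

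**Figure D2:**
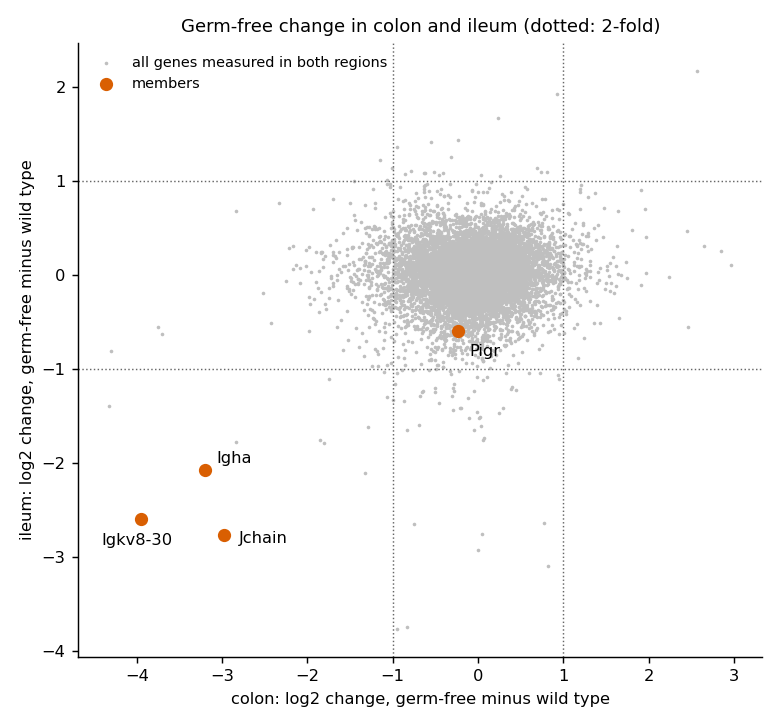
Log2 change, germ-free minus wild type, in colon (horizontal axis) and ileum (vertical axis) for every gene measured in both regions (grey points) and the 4 members (orange), with dotted lines at 2-fold. Igha, Igkv8-30 and Jchain lie at the lower left, between -3.95 and -2.98 in colon and between -2.77 and -2.07 in ileum, and Pigr lies near the edge of the main cloud at -0.23 in colon and -0.59 in ileum.

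The immunoglobulin members differed in the size of their change. The SDs set beside these differences are those of 1 probe set's change, and a difference between 2 genes has a larger one. In colon the change of Igkv8-30 was 0.75 log2 further from 0 than that of Igha (a difference of -0.75) and 0.97 further than that of Jchain (-0.97), both beyond the SD of 0.32 between probe sets, while Igha and Jchain differed by -0.22. The place of Igkv8-30 in colon rests on its low germ-free value: with the floor at the 75th percentile its change was -2.56, against -3.20 for Igha and -2.58 for Jchain. In ileum Jchain was further from 0 than Igha (Igha minus Jchain 0.70), and Igkv8-30 minus Igha was -0.53, both beyond the SD of 0.23, while Igkv8-30 and Jchain differed by 0.17. The ileum distance between Igha and Jchain rests on the brightest Igha probe set, because the dimmest Igha probe set, at -2.89, lay beyond the Jchain value.

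Igha and Igkv8-30 had germ-free changes nearer to 0 in ileum than in colon. The ileum change minus the colon change was 1.13 log2 for Igha, 1.35 for Igkv8-30, 0.20 for Jchain and -0.36 for Pigr. For the 3 Igha probe sets it was 1.13, 1.16 and 0.43 from the brightest to the dimmest. The SD between probe sets for this difference was 0.37, so the values of Jchain and of the brighter Pigr probe set lay within it. The dimmer Pigr probe set gave -1.24, and the mean of both Pigr probe sets -0.80, beyond it. The sign for Jchain and for the brighter Pigr probe set turned under other settings. With the floor raised to the 75th percentile, which lifts the germ-free colon value, the Igkv8-30 difference became -0.041. The difference was not tested, because each of the 4 groups is 1 array.

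Levels also differed between the regions, in comparisons that share their arrays with those above. On the germ-free arrays Igha was 3.41-fold higher in ileum than in colon (1712 against 501), Jchain 3.57-fold (704 against 197) and Igkv8-30 4.53-fold (446 against 98.6), while Pigr was 1.38-fold lower in ileum (5396 against 7457). On the wild type arrays Jchain was 3.10-fold higher in ileum (4808 against 1549), Igkv8-30 1.78-fold (2706 against 1524) and Igha 1.56-fold (7204 against 4609). Wild type Pigr, by its brighter probe set, read 8144 in ileum and 8752 in colon, a log2 difference of -0.10 within the SD of 0.34. By the dimmer Pigr probe set this difference was 0.25, and it was -0.99 on the germ-free arrays. The dimmest Igha probe set gave a larger regional step in wild type, 2.49-fold. At least 2-fold higher in ileum were 3 of the 4 members on the germ-free arrays, against 7.37% of 11986 measured genes, and 1 of 4 on the wild type arrays, against 6.04% of 12000. With the floor at the 75th percentile Igkv8-30 was 1.73-fold higher in germ-free ileum, under the 2-fold threshold.

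The 3 immunoglobulin members shared 1 order of the arrays, rising from colon germ-free through ileum germ-free and colon wild type to ileum wild type. Between the middle arrays of that order the step was 2.69-fold for Igha, 2.20-fold for Jchain and 3.41-fold for Igkv8-30. From the lowest to the highest array the levels spanned 14.4-fold for Igha, 24.4-fold for Jchain and 27.4-fold for Igkv8-30. The first and the last step of that order were each larger than the SD between probe sets for their comparison. No such SD was computed for the middle step. Under epithelium marker scaling the last step of Igha was 0.31 log2, within the SD of 0.34. The same order was found for 172 (2.32%) of the 7424 bright genes above the floor on all arrays. Nothing is read from that share, since the 3 members were chosen for low germ-free values. By its brighter probe set Pigr had another order, ileum germ-free, colon germ-free, ileum wild type and colon wild type, with a span of 1.62-fold. The wild type arrays, next to each other at its top, did not differ beyond the SD. The dimmer Pigr probe set placed colon wild type (2388) below ileum wild type (2831). It spanned 3.03-fold from its lowest array, ileum germ-free (935).

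Genes with the most similar patterns were sought by the distance between log2 values on the 4 arrays after each gene's own mean was removed. The floor was not applied to these values. For each of the immunoglobulin members the nearest genes were the other 2, at distances of 0.71 log2 (Igha and Igkv8-30), 0.74 (Igha and Jchain) and 0.74 (Jchain and Igkv8-30). Nothing is read from this nearness, since the immunoglobulin members were chosen for low germ-free values on these same arrays. The next for Igha were Tpm2, a tropomyosin gene of muscle (1.11), Gzma, a granzyme of cytotoxic lymphocytes (1.19), and Vstm5 (1.38). For Jchain they were Gzma (1.24), Tpm2 (1.47) and Pla2g4c (1.59), and for Igkv8-30 Gzma (1.76), Tpm2 (1.79) and Vstm5 (2.04). Gzma read 48.3 on the germ-free and 153 on the wild type colon array, and 145 on the germ-free and 447 on the wild type ileum array. Tpm2 read 171 on the germ-free and 601 on the wild type colon array, and 288 on the germ-free and 995 on the wild type ileum array. The nearest to Pigr, by its brighter probe set, were Pygb, a glycogen phosphorylase (0.03), Plrg1 (0.07), Mrpl12 (0.07), Trim26 (0.08) and Tmbim4 (0.08). Pygb read 395 on the germ-free and 478 on the wild type colon array, and 291 on the germ-free and 437 on the wild type ileum array. Pigr itself lay 2.78 to 3.48 from the immunoglobulin members.

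Of 11 further constant region genes 2 were in the table under a symbol of their own, and 1 of these was measured. That gene, Ighm, the heavy chain of IgM, read 206 on the germ-free and 405 on the wild type colon array (log2 change -0.98), and 351 on the germ-free and 348 on the wild type ileum array (0.01, a sign that turned on the deposited values). Ighg3, an IgG heavy chain, was below the floor on all arrays. Of 16 variable segments with a symbol of their own, 2 exceeded the floor on any array: Igkv8-30, and Igkv9-120 with a highest intensity of 68.0. Among 13 probe sets that list several antibody genes, 6 exceeded the floor somewhere, among them the 3 kappa probe sets described above.

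Of 12 plasma cell markers 10 were in the table and 3 of these, Tnfrsf17 (the receptor BCMA), Irf4 and Eaf2, were below the floor on all arrays. In colon 1 of 5 measured markers, Derl3, was lower by 2-fold or more and 0 were higher (median -0.45), and in ileum 0 of 7 were past 2-fold, with a median of -0.30. Their summed intensity was 7974 on the germ-free and 7014 on the wild type colon array, and 7054 on the germ-free and 7535 on the wild type ileum array. Most of that sum is Sdc1, a syndecan that epithelial cells make too, at 6464 on the germ-free and 4852 on the wild type colon array. Derl3, an endoplasmic reticulum protein of secretory cells, read 169 on the germ-free and 356 on the wild type colon array (-1.07), and 160 on the germ-free and 196 on the wild type ileum array (-0.30, a sign that turned under spike scaling). Mzb1, a folding helper for antibody chains, read 143 on the germ-free and 149 on the wild type colon array, and 186 on the germ-free and 239 on the wild type ileum array. Txndc5, a protein disulfide isomerase, read 919 on the germ-free and 1309 on the wild type colon array (-0.51), and 1167 on the germ-free and 1732 on the wild type ileum array (-0.57). Sdc1, Txndc5 and Derl3 thus exceeded the bright level of 259 on at least one array, and the other plasma cell markers did not.

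Of 12 B cell markers 11 were in the table, and Cd79a, Ms4a1, Fcer2a, Cr2 and Cd37 were below the floor on all arrays. In colon 1 of 4 measured markers, Bank1, was lower by 2-fold or more (median -0.25), and in ileum 0 of 6 were past 2-fold, with a median of -0.02 whose sign turned under other scalings. The summed intensity was 499 on the germ-free and 626 on the wild type colon array, and 691 on the germ-free and 703 on the wild type ileum array. The largest colon changes in these marker lists were 2.11-fold for Derl3 and 2.16-fold for Bank1, against 7.87-fold to 15.5-fold for Igha, Jchain and Igkv8-30, which were chosen for their low germ-free values, and 1.97-fold for Ighm. On the wild type colon array Bank1 (165), Derl3 (356) and Ighm (405) lay too near the floor of 62.4 to show changes as large. Txndc5 (1309) and Sdc1 (4852) did not lie so near it. The part of plasma or B cells in the captures was not tested.

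**Figure D3:**
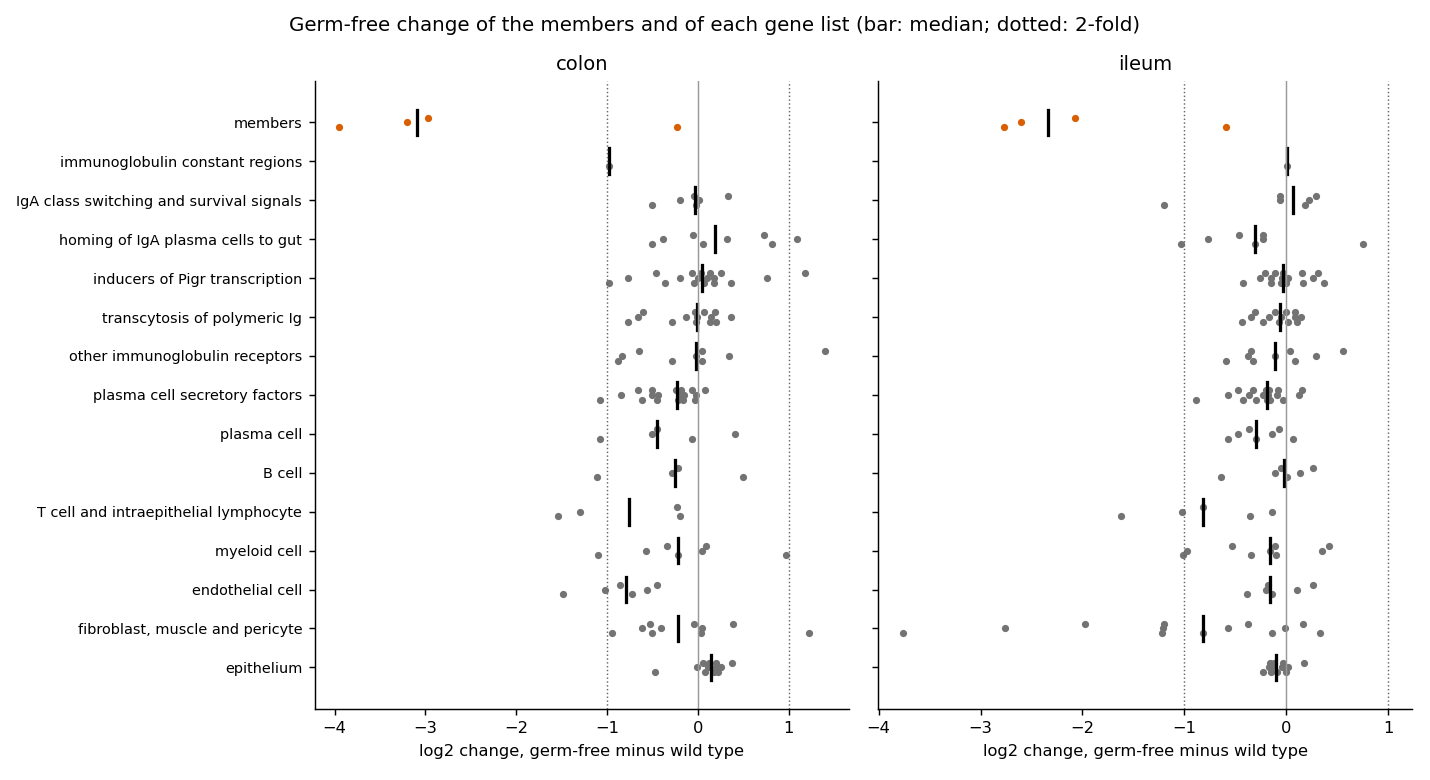
Log2 change, germ-free minus wild type, of the members (orange) and of each gene list (grey, 1 point per measured gene) in colon (left) and ileum (right), with black bars at the medians and dotted lines at 2-fold; values against a floored array are lower bounds. The 3 immunoglobulin members lie left of every listed gene in colon, and in ileum only Rgs5 (-3.77) and Cald1 (-2.76) of the pericyte and muscle list reach their range.

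Markers of other cells that a capture can include had changes past 2-fold too. Among all measured genes, 3.23% in colon and 0.698% in ileum were at least 2-fold lower. At least 2-fold higher were 1.29% in colon and 0.23% in ileum. Of 12 T cell and intraepithelial lymphocyte markers in the table, 7 (Cd3d, Cd3e, Cd3g, Cd8b1, Cd4, Cd2 and Cd7) were below the floor on all arrays. At least 2-fold lower were 2 of 4 measured in colon, Cd8a (-1.54) and Gzma, and 2 of 5 in ileum, Gzma (-1.62) and Gzmb. Gzma in colon and Gzmb in ileum were below the floor on the germ-free array, so these changes are lower bounds. On the deposited values the ileum change of Gzmb was -0.96, under 2-fold. Itgae, an integrin of intraepithelial lymphocytes, had changes of -0.20 in colon, a sign that turned on the deposited values, and -0.36 in ileum. The summed intensity of this list was 647 on the germ-free and 1097 on the wild type colon array, and 1121 on the germ-free and 1678 on the wild type ileum array. Of 10 endothelial markers 2 of 6 measured were at least 2-fold lower in colon, Kdr (-1.49) and Plvap (-1.02), and 0 of 6 in ileum, with sums of 498 on the germ-free and 1047 on the wild type colon array, and 651 on the germ-free and 673 on the wild type ileum array; Pecam1, Vwf and Cldn5 were below the floor on all arrays. Of 14 fibroblast, muscle and pericyte markers 1 of 10 measured was at least 2-fold higher in colon (Pdgfrb, 1.23) and 0 lower, and 6 of 13 were at least 2-fold lower in ileum, among them Rgs5 and Cald1. Dcn, Tagln and Des, also among these 6, were below the floor on the germ-free ileum array, so their changes are lower bounds. That list summed to 4781 on the germ-free and 5297 on the wild type colon array, and to 5149 on the germ-free and 10675 on the wild type ileum array, with Myh11 below the floor throughout. Of 12 myeloid markers 1 of 7 measured was at least 2-fold lower in colon (Adgre1, -1.10) and 1 of 9 in ileum (Lyz2, -1.01), with sums of 14232 on the germ-free and 13712 on the wild type colon array, and 10721 on the germ-free and 12078 on the wild type ileum array; Cd68, Itgax and Aif1 were below the floor throughout. Most of the myeloid sum is the cathepsin gene Ctss, at 12078 on the germ-free and 11342 on the wild type colon array, and at 7523 on the germ-free and 8138 on the wild type ileum array. Lyz2 read 68.0 on the germ-free and 101 on the wild type colon array, and 888 on the germ-free and 1791 on the wild type ileum array. Which cells gave the Ctss and Lyz2 signals was not tested. The part of any of these cell types in the antibody values was not tested either.

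Of the 12 homing genes, 1 of 8 measured, Ccl25, was at least 2-fold higher in colon and 0 lower (median 0.19), and 1 of 7, Cxcl12, was lower by 2-fold or more in ileum and 0 higher (median -0.31). Ccl28, the epithelial chemokine that attracts IgA plasma cells, read 1706 on the germ-free and 966 on the wild type colon array (0.82), and 675 on the germ-free and 930.3 on the wild type ileum array (-0.46). Ccl25, the chemokine of the small intestine, read 304 on the germ-free and 143 on the wild type colon array (1.09), and 6300.4 on the germ-free and 7366 on the wild type ileum array (-0.23, a sign that turned under 1 scaling). Cxcl12, a chemokine of stromal cells, had changes of 0.73 in colon and -1.04 in ileum. The receptors Ccr9, Ccr10, Cxcr4 and Cxcr5 were below the floor on all arrays.

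Of 19 class switching and survival genes in the table, 12 were below the floor on all arrays, Tslp, Il6 and Il10 among them. In colon 0 of 6 measured were past 2-fold (median -0.03), and in ileum 1 of 6 was at least 2-fold lower (median 0.06). That gene, Tnfsf13b, which encodes the B cell survival factor BAFF, read 126 on the germ-free and 178 on the wild type colon array, and 83.7 on the germ-free and 192 on the wild type ileum array (-1.20). Aldh1a1, a retinoic acid-forming enzyme, was bright, at 9962 on the germ-free and 9902 on the wild type colon array, and at 9169 on the germ-free and 7832 on the wild type ileum array. Tgfbr1, a receptor for the switch factor TGF beta, had changes of 0.33 in colon and 0.19 in ileum. Smad3, which acts below it, had changes of -0.02 in colon, a sign that turned on the deposited values, and 0.29 in ileum.

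Of the genes known to act in Pigr induction, 1 was past 2-fold in colon and 0 in ileum. In colon 1 of 18 measured was at least 2-fold higher, Tlr4, and 0 were lower (median 0.05), and in ileum 0 of 16 were past 2-fold (median -0.04); both medians changed sign under other scalings. Tlr4, the receptor for lipopolysaccharide, read 556 on the germ-free and 245 on the wild type colon array and was below the floor in ileum. Tlr2, a receptor for bacterial lipoproteins, read 309 on the germ-free and 607 on the wild type colon array (-0.98), and Il4ra, a receptor chain for interleukin 4, 179 on the germ-free and 306 on the wild type colon array (-0.77). Irf1, the interferon regulatory factor that acts on the Pigr gene, read 5129 on the germ-free and 6586 on the wild type colon array (-0.36), and 4191 on the germ-free and 4646 on the wild type ileum array (-0.15, a sign that turned under spike scaling). Usf1, an E-box factor, had changes of 0.17 in colon and 0.37 in ileum. The E-box and the interferon regulatory factor core in the Pigr window above are of the kinds such factors bind, and no binding was measured here.

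No gene of the machinery that moves the receptor through the cell was past 2-fold. Of 14 measured transcytosis genes 0 were past 2-fold in either region, with medians of -0.01 in colon and -0.06 in ileum, whose signs turned under at least one other scaling. Rab25, a GTPase of apical recycling, read 711 on the germ-free and 1214 on the wild type colon array (-0.77), and 748 on the germ-free and 1012 on the wild type ileum array (-0.44). Ap1b1, an adaptor subunit, had changes of -0.65 in colon and 0.08 in ileum, and Egfr -0.61 in colon. Rab17 and Rab11a, GTPases of the transcytotic route, and Myo5b, a motor protein, lay within 0.13 of 0 in both regions.

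Among 9 measured genes for other immunoglobulin receptors, 1 was at least 2-fold higher in colon and 0 lower (median -0.02), and 0 were past 2-fold in ileum (median -0.11, a sign that turned under other scalings). The higher one was Tfrc, the transferrin receptor, which can also bind polymeric IgA1 in humans, at 6904 on the germ-free and 2621 on the wild type colon array (1.40), and at 5446 on the germ-free and 6812 on the wild type ileum array (-0.32). Fcgrt, the neonatal Fc receptor for IgG, was lower on both germ-free arrays, at 962 on the germ-free and 1507 on the wild type colon array (-0.65), and at 774 on the germ-free and 1166 on the wild type ileum array (-0.59). In ileum this was like the change of the brighter Pigr probe set, and not like that of the dimmer one (-1.60). Fcgr1, an IgG receptor of myeloid cells, had changes of -0.88 in colon and 0.56 in ileum. Fcamr, a receptor for IgA and IgM, was below the floor on all arrays.

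Secretory factors that plasma cells use in bulk are described by their counts and medians beside all genes. In colon 17 of 18 measured were below 0, as were 51.3% of all measured genes, 1 of them, Derl3, by 2-fold or more, with a median of -0.24, and in ileum 16 of 18 were below 0, as were 45.1% of all measured genes, and 0 past 2-fold, with a median of -0.19 that turned to 0.09 when arrays were scaled on the hybridization spikes. Edem2, which clears misfolded glycoproteins, had changes of -0.19 in colon, a sign that turned on the deposited values, and -0.89 in ileum. Herpud1, a stress-induced membrane protein, had changes of -0.66 in colon and -0.20 in ileum, where the sign turned under spike scaling. Xbp1, the transcription factor of the secretory program, read 3843 on the germ-free and 3628 on the wild type colon array, and 4634 on the germ-free and 5194 on the wild type ileum array. The list shares Mzb1, Derl3, Irf4, Prdm1 and Txndc5 with the plasma cell list.

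**Figure D4:**
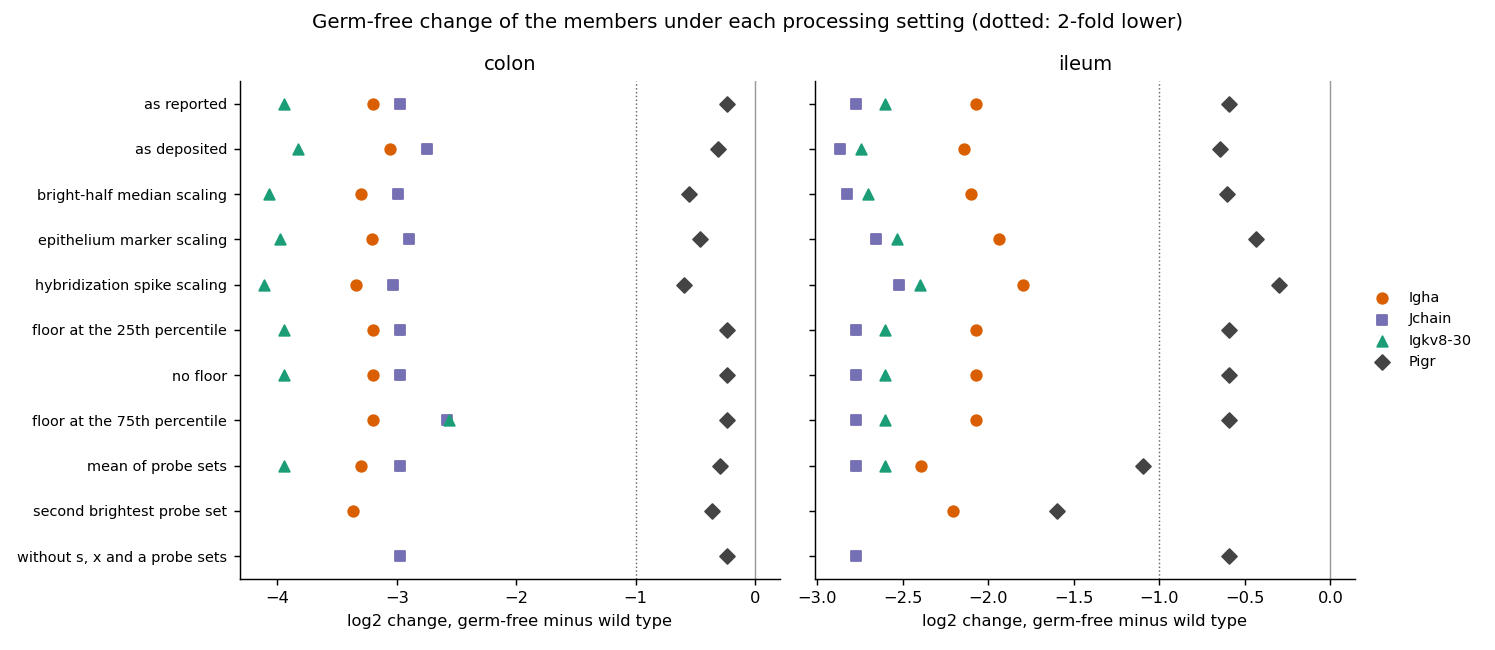
Log2 change, germ-free minus wild type, of Igha, Jchain, Igkv8-30 and Pigr in colon (left) and ileum (right, on a narrower scale) as reported and under each other processing setting, with a dotted line at 2-fold lower. Igha, Jchain and Igkv8-30 stay left of the dotted line wherever a setting gives a value, and Pigr crosses it in ileum for the mean of its probe sets (-1.10) and its second probe set (-1.60).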

How the data were processed

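Gene expression was measured on Affymetrix mouse arrays in 4 pools of laser-captured epithelial cells. Each deposited value is a linear intensity of 1 probe set, made by the authors with dCHIP2004 per the series' design text, whose background and normalization options the sources do not state. Of 45101 probe sets 64 were controls. The other 45037 were quantile-normalized on the log2 scale and floored at the pooled median (python 3.11.15, pandas 2.3.3, numpy 2.4.6). Gene symbols came from the platform annotation and were updated with RefSeq (34945 with 1 symbol, 932 with several, 9160 with none), and the brightest stood for a gene. A gene was measured in a comparison if 1 array or both exceeded the floor. Comparisons are differences of log2 values with no test, since each group has 1 array. The steps were tested on simulated data.

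The members, the 14 gene lists (178 of 196 entries matched) and the settings were chosen with earlier results of these data known. Named genes were all members, the 3 bright members (above an intensity of 259, the pooled 75th percentile) with the largest change of each list, the 5 nearest patterns per member, and other list genes where their value was the point. Settings tried were other scalings, floors, probe set choices and fold thresholds of 1.5 and 3. Of the constant region list, 9 genes had no symbol of their own and were not analysed here.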

Additional observations from a re-analysis of the deposited data

Results flagged for a closer look

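Among the named members of the lists, 6 genes were higher on the germ-free array in one region and lower in the other, by more than the SD between probe sets in each. List genes outside the named ones also met this rule, among them Vim (0.38 in colon and -1.21 in ileum) and Relb (0.76 in colon and -0.42 in ileum). No share of all measured genes stands beside this count, so nothing is read from it. Under spike scaling the ileum changes of Tfrc (-0.048) and Ccl28 (-0.19) were within the ileum SD of 0.23, as was that of Tfrc under epithelium marker scaling (-0.18). The difference between regions was not tested, as each group is 1 array. The colon change minus the ileum change was 1.77 log2 for Cxcl12, 1.72 for Tfrc, 1.51 for Cd14 (0.98 in colon and -0.53 in ileum) and 1.28 for Ccl28, all higher in germ-free colon. It was -1.51 for Adgre1 (-1.10 in colon and 0.41 in ileum) and -1.44 for Fcgr1, both lower in germ-free colon. Igha, Jchain, Igkv8-30 and Pigr were each lower on both germ-free arrays.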

How the results depend on the processing

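Over the settings tried, germ-free Igha was lower than wild type by log2 changes of -3.37 to -3.06 in colon and -2.39 to -1.80 in ileum, Jchain by -3.03 to -2.58 in colon and -2.87 to -2.52 in ileum, Igkv8-30 by -4.11 to -2.56 in colon and -2.74 to -2.40 in ileum, and Pigr by -0.60 to -0.23 in colon and -1.60 to -0.30 in ileum. Igha and Igkv8-30 have no value once s, x and a probe sets are left out, and Jchain and Igkv8-30 none for a second probe set. Of the member values, 157 moved by less than the SD between probe sets and the others by more. Many of the 157 could not have moved, so the count is no measure of stability. All member probe sets lie above the floor, so a lower floor or none changes nothing. A gene with 1 probe set keeps its value when probe sets are averaged. Leaving out s, x and a probe sets removes none from Jchain or Pigr. A sign changed in 7 of the member values, 1 of which was past 2-fold as reported. Beside those given below, these were the Jchain difference on the deposited values (-0.12) and wild type Pigr in ileum over colon with all probe sets averaged (0.071). The second probe set and the scaling on hybridization spikes were chosen after the data were seen. The spike scaling moved the median of all genes to -0.18 in colon, 0.31 in ileum and 0.48 for the difference between them. No paired analysis was possible because each group has 1 array, and no array could be left out of a group.

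With the floor at the 75th percentile, which replaces the low germ-free colon values, Igkv8-30 became -2.56 and Jchain -2.58 in colon, their ileum-minus-colon difference of the germ-free change became -0.041 for Igkv8-30 (1.35 as reported) and -0.19 for Jchain, and germ-free ileum over colon became 0.79 for Igkv8-30 and 1.44 for Jchain. With all probe sets of a gene averaged, germ-free ileum became -2.39 for Igha and -1.10 for Pigr, and the difference of the Pigr changes -0.80. With the second probe set Pigr was -1.60 in germ-free ileum, -1.24 for the difference, -0.99 for germ-free ileum over colon and 0.25 for wild type ileum over colon. With spike scaling germ-free ileum became -1.80 for Igha, -2.52 for Jchain and -0.30 for Pigr, germ-free colon -0.60 for Pigr, the difference 1.54 for Igha and 0.30 for Pigr, and germ-free ileum over colon -0.065 for Pigr. With bright-half median scaling Pigr in colon was -0.56. With epithelium marker scaling the Pigr difference was 0.026 and wild type ileum over colon -0.47. For these scalings and probe sets the cause of the shift was not tested.

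Genes past 2-fold lower in germ-free colon numbered 379 as reported, against 768 with the floor at the 25th percentile, 136 with it at the 75th, 1634 with no floor, 218 with the mean of probe sets, 109 with the second probe set, 571 with spike scaling, 1273 at 1.5-fold and 76 at 3-fold. Those at least 2-fold higher there numbered 152 as reported, against 296 as deposited, 409 with the floor at the 25th percentile, 50 with it at the 75th, 1230 with no floor, 97 with the second probe set, 727 at 1.5-fold and 27 at 3-fold. In ileum those at least 2-fold lower numbered 82 as reported, against 52 with epithelium marker scaling, 233 with the floor at the 25th percentile, 22 with it at the 75th, 971 with no floor, 37 with the second probe set, 43 with spike scaling, 372 at 1.5-fold and 24 at 3-fold. Those at least 2-fold higher in germ-free ileum numbered 27 as reported, against 56 with epithelium marker scaling, 145 with the floor at the 25th percentile, 5 with it at the 75th, 886 with no floor, 8 with the second probe set, 111 with spike scaling, 282 at 1.5-fold and 4 at 3-fold. Genes at least 2-fold higher in ileum than colon on the germ-free arrays numbered 883 as reported, against 1374 with the floor at the 25th percentile, 419 with it at the 75th, 2298 with no floor, 286 with the second probe set, 2061 at 1.5-fold and 301 at 3-fold. On the wild type arrays they numbered 725 as reported, against 438 with epithelium marker scaling, 427 with the floor at the 75th percentile, 1789 with no floor, 256 with the second probe set, 1627 at 1.5-fold and 318 at 3-fold.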
